A study of Mus musculus with 2 samples.

Results

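The CTCF ChIP-seq peaks described here are those that passed IDR (irreproducible discovery rate) thresholding in only one of the 2 lists that the study deposited, named optimal and conservative. On chromosomes 1 to 19 the optimal list held 66972 peaks and the conservative list 63944 peaks. A peak was a member where its chromosome and summit occurred in one list and not in the other. There were 8777 optimal-only peaks, 13.1% of the optimal list, and 5749 conservative-only peaks, 8.99% of the conservative list. Together they were 14526 of 72721 listed peaks (19.98%), and the other 58195 peaks, present in both lists at the same summit, are called shared. CTCF binds DNA through an array of zinc fingers that reads a long, oriented motif, and it halts the cohesin complex as cohesin extrudes chromatin loops, so that its sites mark many loop anchors and domain boundaries. IDR thresholding ranks the peaks of 2 sets against each other and keeps those whose ranks are reproducible.

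The tissue was midbrain of newborn (postnatal day 0) mice of strain B6NCrl, immunoprecipitated with an antibody to CTCF, with 2 replicates in 1 group, a separate control alignment and no other treatment or genotype. The labels give 1 biosample and 1 donor for both replicates and no sex, so differences between the replicates may be technical ones. A bulk midbrain sample mixes neurons, glia, vessels and blood, and fewer cells with a bound site cannot be told apart from weaker binding in each cell. The files hold no RNA level, so the tissue label was not checked against marker genes. The deposited lists were called on replicate 1, on replicate 2 and on both pooled, with 300000 peaks each over all chromosomes. The read depth behind them was not analysed here.

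The DNA at the summits was read against a CTCF motif. A 20-base CTCF matrix was learned from the strongest shared peaks, and its consensus was tggCCACcAGggGGCgctat, with the most informative columns in capitals. Optimal-only peaks with a match are shown, the 4 strongest and then the 3 nearest the median signal of the group. Each line gives mm10 plus-strand letters around the summit from the reference genome of the same build, 5′ to 3′, with the matched 20 bases in capitals, and says where the summit base is repeat-masked.
chr1:132521053-132521118 (Cntn2 intron): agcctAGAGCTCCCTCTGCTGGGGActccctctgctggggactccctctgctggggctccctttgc
chr8:116873169-116873233 (intergenic, repeat): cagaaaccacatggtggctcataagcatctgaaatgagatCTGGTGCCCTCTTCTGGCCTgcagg
chr16:87626875-87626938 (intergenic, repeat): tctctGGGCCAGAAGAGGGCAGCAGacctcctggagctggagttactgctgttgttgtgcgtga
chr1:89191826-89191891 (intergenic): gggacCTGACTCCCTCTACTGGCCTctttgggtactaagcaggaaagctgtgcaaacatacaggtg
chr3:56993548-56993608 (intergenic, repeat): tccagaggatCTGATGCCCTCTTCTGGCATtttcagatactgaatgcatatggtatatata
chr2:172641142-172641202 (intergenic, repeat): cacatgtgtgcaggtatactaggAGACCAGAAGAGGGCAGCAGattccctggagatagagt
chr5:139957736-139957796 (Elfn1 intron): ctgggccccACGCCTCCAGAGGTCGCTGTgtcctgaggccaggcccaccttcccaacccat

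In the same way, the 4 strongest and the 3 median conservative-only peaks with a match are given, again with the match in capitals. Matches on the minus strand read in reverse complement.
chr7:124217239-124217299 (Hs3st4 intron): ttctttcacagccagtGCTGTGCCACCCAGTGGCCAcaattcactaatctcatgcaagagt
chr4:149723995-149724064 (Tmem201 intron): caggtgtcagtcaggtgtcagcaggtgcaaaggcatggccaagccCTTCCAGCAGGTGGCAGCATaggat
chr5:140620065-140620132 (intergenic): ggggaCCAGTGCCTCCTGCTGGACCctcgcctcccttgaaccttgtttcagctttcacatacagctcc
chr17:48032207-48032267 (intergenic, repeat): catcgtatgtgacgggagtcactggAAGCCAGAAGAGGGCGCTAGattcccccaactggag
chr19:32098742-32098802 (Asah2 intron, repeat): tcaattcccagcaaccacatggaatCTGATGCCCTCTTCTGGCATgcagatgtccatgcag
chr1:74950365-74950426 (Ihh intron): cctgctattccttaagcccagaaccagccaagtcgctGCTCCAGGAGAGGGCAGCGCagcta
chr4:140572966-140573031 (Arhgef10l intron): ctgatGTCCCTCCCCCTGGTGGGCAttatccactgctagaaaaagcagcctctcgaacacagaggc

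The strongest member of each group with no match even at a loose threshold of 1e-04 is shown for contrast, and these windows have no capitals. The first is the optimal-only peak and the second the conservative-only peak.
chr2:174075881-174075941 (Stx16 promoter): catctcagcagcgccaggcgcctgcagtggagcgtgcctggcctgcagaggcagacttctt
chr11:73281872-73281932 (Trpv3 intron): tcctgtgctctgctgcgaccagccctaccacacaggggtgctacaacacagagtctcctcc

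Of the 14 windows shown with a match, 6 have their summit on a repeat, and all 6 of these hold the same core, read as CCAGAAGAGGGC on the plus strand or in reverse complement. It fills columns 4 to 15 of the matrix and was the most frequent 12-base core in both groups of members. It was found at 1196 of 3103 optimal-only matches (38.5%) and at 725 of 1935 conservative-only matches (37.5%), against 5796 of 36281 shared matches (15.98%). Among shared peaks with a signal over 100 it made up 6.80% of 21932 matches, whereas among shared peaks with a signal of 20 to 40, where most members lie, it made up 36.3% of 3946 matches. This core sat on repeat-masked sequence at 93.1% of its optimal-only and 90.9% of its conservative-only occurrences, against 94.8% of its shared ones. As background, B2 short interspersed elements spread a CTCF motif through rodent genomes. The reference marks repeats without their class, so the class was not assigned here.

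The core closest to the consensus, CCACCAGGGGGC, was rare among members, at 8 optimal-only (0.26%) and 4 conservative-only matches (0.21%), against 666 shared matches (1.84%). It was also rare among shared peaks with a signal of 20 to 40, at 16 of 3946 matches (0.41%). It was found on repeats at 0 of the 8, at 0 of the 4 and at 13 of the 666. In all, the members used 674 different cores in the optimal-only group and 486 in the conservative-only group, against 2008 in the larger shared group. These cores were counted after the sequences had been seen and carry no test.

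Membership was selected on the ChIP-seq signal and its agreement between peak sets, so signal, score and replicate values are given as a description with no test. The optimal-only peaks had a median deposited signal of 26.4 and a range from 6.81 to 90.8, and the conservative-only peaks a median of 26.0 and a range from 6.80 to 157. The shared peaks had a median of 96.8 and reached 691. The signal is the authors' own value for each peak in the pooled call, and its scale is not given in the sources used here. Every member was present in the pooled list at the same summit with the same signal. Most members fell in a narrow band, 80.4% of optimal-only and 82.8% of conservative-only peaks between 20 and 40, against 16.4% of shared peaks.

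**Figure D1:**
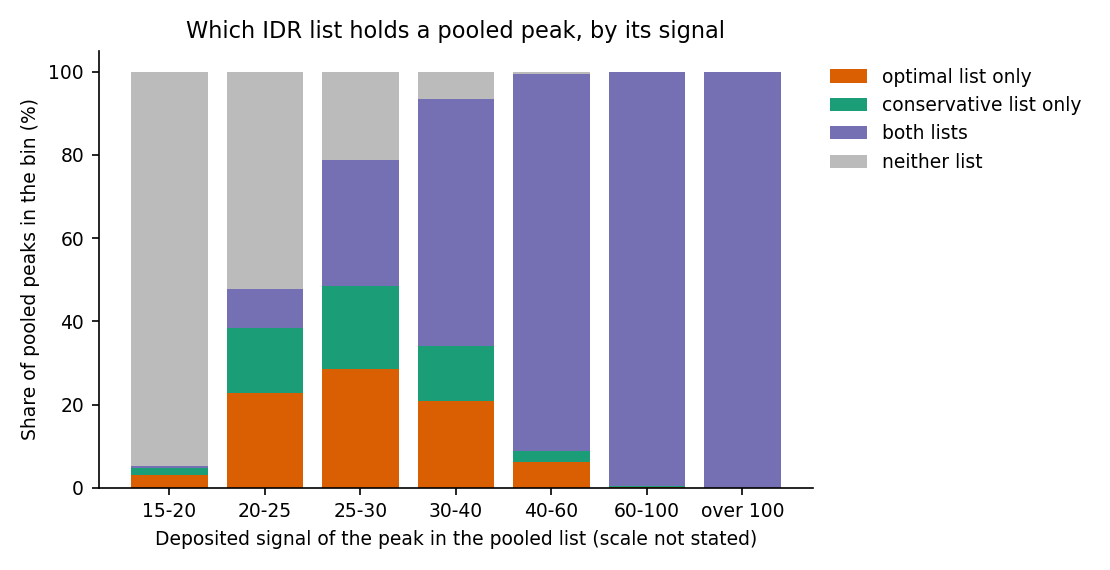
Stacked bars give the percentage of all pooled peaks in each bin of deposited signal that lay in the optimal list only, the conservative list only, both lists or neither list. Single-list peaks reached their highest share at a signal of 25 to 30, with 28.6% optimal-only and 19.9% conservative-only, and above 60 nearly every pooled peak was shared.

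The band of single-list peaks lies where the pooled list passes over from peaks in neither list to peaks in both. In the bin from 15 to 20, 3.09% of pooled peaks were optimal-only, 1.70% were conservative-only and 94.8% were in neither list. Between 25 and 30 these shares were 28.6%, 19.9% and 21.2%, with 30.3% shared. Between 40 and 60 they were 6.12%, 2.76% and 0.512%, with 90.6% shared. A conservative list need not lie inside an optimal one, and here it did not.

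Every listed peak was also in the pooled list at the same summit, so exact matching already paired the peaks of that call. The distances between the lists are therefore given as a description. No member had a summit within 100 bp in the other list, and the nearest such summit lay 199 bp away in both groups. Only 55 optimal-only and 54 conservative-only peaks had one within 200 bp, and 254 and 221 peaks overlapped a peak interval of the other list. At the lower edge, the 3 weakest optimal-only peaks had signals of 6.81, 6.86 and 6.88, and the 3 weakest conservative-only peaks had 6.80, 6.85 and 6.87. Both groups started at a deposited score of 537, the lowest in either list, and 17.0% of optimal-only and 12.6% of conservative-only peaks had the ceiling score of 1000, against 87.0% of shared peaks.

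The replicates separated the groups that pooled signal did not. Replicate 1 listed a summit within 100 bp for 96.1% of optimal-only and 93.3% of conservative-only peaks, and replicate 2 for 92.4% and 92.3%, so nearly all were present in each replicate's own call. In replicate 1 the median signal was 15.03 for optimal-only, 14.9 for conservative-only and 55.3 for shared peaks. In replicate 2 it was 9.66 for optimal-only, 11.1 for conservative-only and 42.3 for shared peaks. The members' median signals were thus below those of shared peaks in both replicates, and the groups differed in how the replicates related to each other.

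Among the 7819 optimal-only peaks listed in both replicates, log2 of replicate 1 over replicate 2 signal had its median at 0.92, with an SD of 1.00. Among 5076 such conservative-only peaks the median was 0.42 and the SD 0.28, and among 57688 shared peaks 0.30 and 0.32. The optimal-only ratios formed a pair of humps, with 54.6% above 0.75 and 38.8% at 0 or below. Only 6.62% of optimal-only peaks lay between 0 and 0.75, where 81.9% of conservative-only and 78.1% of shared peaks lay.

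**Figure D2:**
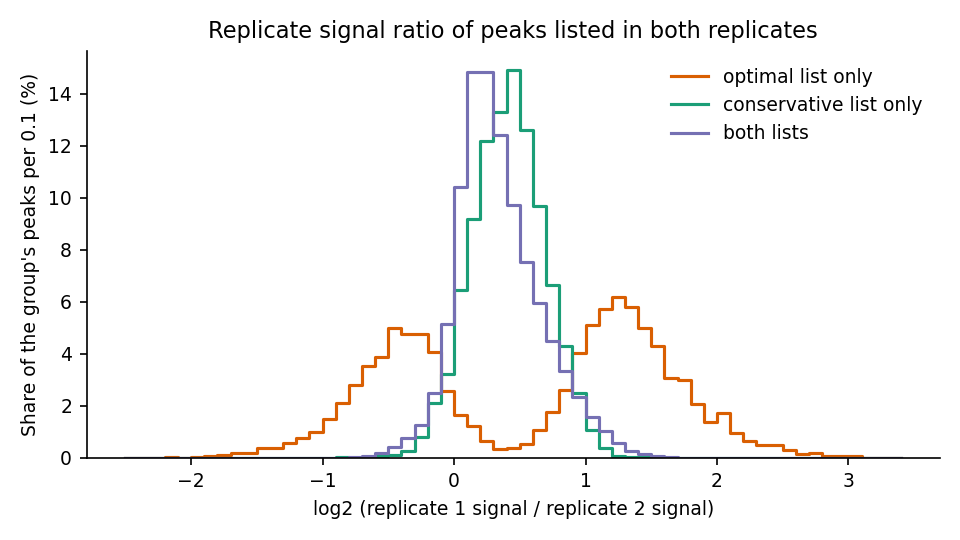
Step lines give the percentage of each group's peaks per 0.1 of log2 (replicate 1 over replicate 2 signal), for peaks listed in both replicates. The optimal-only line dips between 0 and 0.75, which holds 6.62% of its peaks, where the conservative-only and shared lines have their maximum.

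The imbalance ran in both directions. The most extreme optimal-only peak toward replicate 1 lay 17 bp from the start of Gfer, a sulfhydryl oxidase of mitochondrial protein import, with a signal of 42.7 in replicate 1 and 4.64 in replicate 2. Next came Papss1, which makes the sulfate donor PAPS, with 56.7 and 6.33, a log2 ratio of 3.17, and Ank, a pyrophosphate transporter, with a log2 ratio of 3.09. Toward replicate 2 the extremes were Dclk1, a microtubule-associated kinase of migrating neurons, with 4.72 in replicate 1 and 21.5 in replicate 2, and Cnr1, the brain cannabinoid receptor, with 5.45 and 24.1. A peak in an intron of Nr4a3, an immediate early nuclear receptor, had 6.26 and 26.5. Conservative-only extremes were milder. The highest was an intronic peak of Osbpl3, an oxysterol-binding-related protein, with 36.2 in replicate 1 and 13.7 in replicate 2, followed by an intronic peak of Grin2b, an NMDA receptor subunit, with 37.2 and 14.6. The lowest was an intronic peak of Heg1, an endothelial receptor of heart and vessel development, with 21.9 and 39.6.

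Taking the 66972 strongest peaks of each replicate, as many as the optimal list holds, showed the same split. Of optimal-only peaks, 6.93% were among the strongest of both replicates, 72.5% of a single replicate and 20.6% of neither. For conservative-only peaks these shares were 34.5%, 26.7% and 38.8%, and for shared peaks 94.1%, 3.94% and 1.95%. Most optimal-only peaks thus passed this rank limit in a single replicate, with median ranks, where listed, of 66430 in replicate 1 and 73599 in replicate 2. The conservative-only median ranks were 66907 and 66184.

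**Figure D3:**
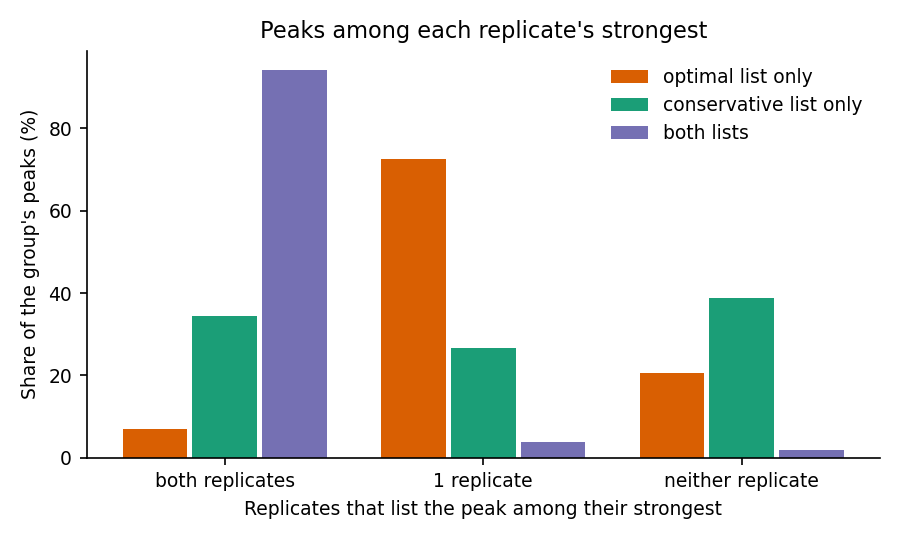
Bars give the percentage of each group's peaks that lay among the 66972 strongest peaks of both replicates, of 1 replicate or of neither. The 1-replicate class holds 72.5% of optimal-only, 26.7% of conservative-only and 3.94% of shared peaks.

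The sides of the optimal-only distribution lay within a few points of each other in sequence and were not compared by a test. A CTCF match was found at 37.4% of the 4267 peaks with a log2 ratio above 0.75 (95% Wilson interval 36.0 to 38.9%) and at 38.9% of the 3034 peaks at 0 or below (37.2 to 40.7%). Repeats were at the summit of 27.9% and 30.1% of these peaks, a promoter was within 1 kb of 22.8% and 23.5%, and mean GC content was 50.4% and 49.8%. Between 0 and 0.75, 32.4% of 518 peaks had a match (28.5 to 36.6%). Within the sides the promoter share varied, with 32.3% at a log2 ratio of -1 or below, 20.7% from -0.5 to 0 and 28.9% above 2. The log2 ratio is a result of the same signals as membership, so this is a description.

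The members' DNA was tested with the 19 autosomes as blocks. It does not enter the rule, but the matrix was learned from shared peaks and matches moved with signal. Among shared peaks, 36.1% had a match at a signal of 20 to 25 and 76.8% over 100. These tests therefore do not separate membership from signal. CTCF matches at p 1e-05 within 50 bp of the summit were found at 3103 optimal-only peaks (35.4%) and 1935 conservative-only peaks (33.7%), against 36281 shared peaks (62.3%), with 56.8% over all listed peaks. In flanks 989 bp away, 1.15%, 1.18% and 1.16% of windows held a match. Across chromosomes the share ranged from 26.7 to 40.5% for optimal-only, from 27.3 to 39.7% for conservative-only and from 59.2 to 66.6% for shared peaks, with no overlap between members and shared peaks. The difference from shared peaks was -27.1 ± 2.35 percentage points for optimal-only and -28.7 ± 2.70 for conservative-only peaks (mean ± SD, n = 19 chromosomes), negative on all 19 in both cases (exact two-sided sign-flip test, adjusted p = 6.54e-06 each, from the smallest p the test can give). Optimal-only minus conservative-only was 1.60 ± 4.14 points, higher on 15 of 19 chromosomes, and did not pass (exact sign-flip test, adjusted p = 0.127). Without replicate 2, that is among all peaks within the 66972 strongest of replicate 1, this last difference was -0.64 points.

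Matches also sat farther from the summit. Their centres lay a median of 9.5 bp away in both groups of members, against 5.5 bp in shared peaks, and 77.2% of optimal-only and of conservative-only matches were within 20 bp, against 92.8% of shared ones, a difference that was not tested. At the stricter p of 1e-06, 11.9% of optimal-only and 11.7% of conservative-only peaks had a match, against 34.7% of shared peaks. A matrix learned from weaker shared peaks matched 38.0% of optimal-only and 36.4% of conservative-only peaks, against 58.7% of shared peaks.

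Much of the contrast with shared peaks moved with signal. With shared peaks weighted to the members' signal, the motif difference shrank to -3.80 ± 3.15 points for optimal-only (higher on 2 of 19 chromosomes) and -4.81 ± 3.44 points for conservative-only peaks (higher on 1 of 19), each still past the threshold (exact sign-flip test, adjusted p = 1.83e-04). This weighting used 5 bins of signal, and the highest, above 33.1, had no upper limit. Shared peaks reached 691 there and members at most 157. Signal was thus not fully matched, and the remaining differences are not differences at like signal. Within the band from 20 to 40, an alternative added after the data had been seen, the differences were -0.47 ± 3.40 and -1.96 ± 3.66 points, and neither passed (exact sign-flip test, adjusted p = 0.738 and 0.173). From 25 to 30, a match was found at 39.3% of optimal-only, 38.0% of conservative-only and 39.1% of shared peaks, and at 37.5% of pooled peaks in neither list. From 40 to 60 the shares were 41.7%, 39.1% and 49.7%. Signal was not matched in that bin, with a median of 43.8 in both groups of members and 48.8 in shared peaks.

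**Figure D4:**
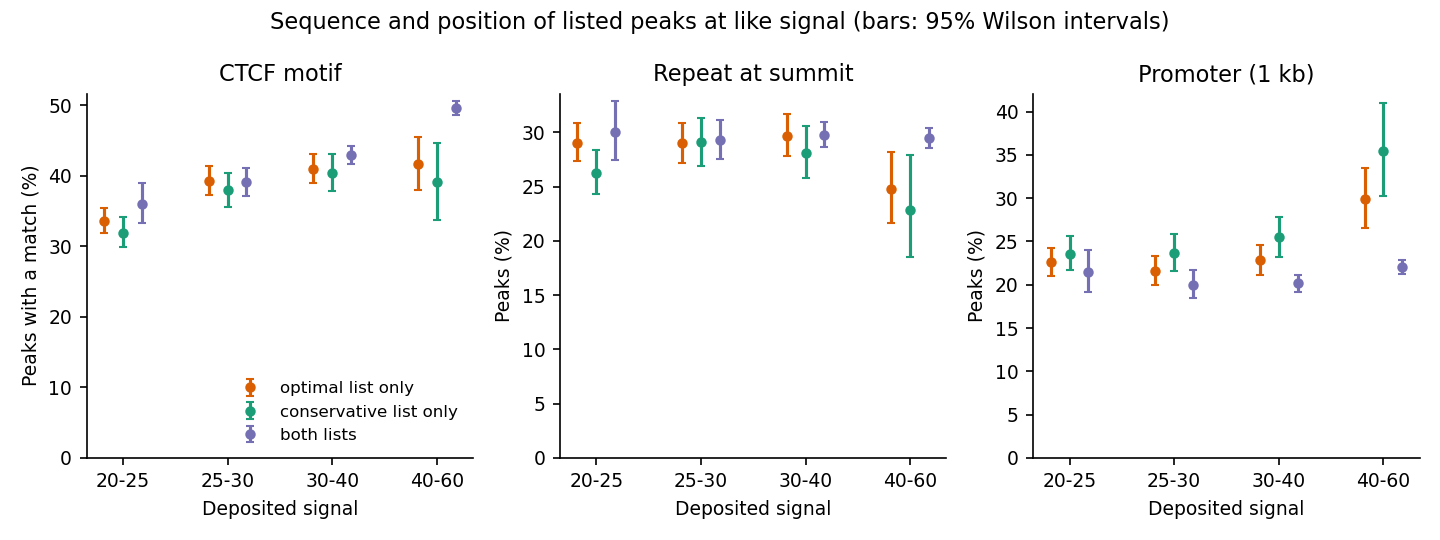
Points give the percentage of peaks with a CTCF match, with a repeat at the summit and within 1 kb of a gene start, in bins of deposited signal, with 95% Wilson intervals that cover counting error only. Between signals of 20 and 30 the intervals of the 3 groups overlap in each panel, and at 40 to 60 a match was found at 41.7% of optimal-only, 39.1% of conservative-only and 49.7% of shared peaks. In the same order, a repeat was at 24.8%, 22.8% and 29.5% of summits at 40 to 60. A gene start was within 1 kb of 29.9%, 35.4% and 22.0% there. The median signal in that bin was 43.8, 43.8 and 48.8, so signal was not matched within it.

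Repeats were more frequent at members' summits. The summit base was repeat-masked at 2423 optimal-only (27.6%) and 1494 conservative-only peaks (26.0%), against 11729 shared peaks (20.2%). The differences from shared peaks were 7.49 ± 1.92 and 5.76 ± 2.41 points, positive on 19 of 19 chromosomes each (exact sign-flip test, adjusted p = 6.54e-06). Optimal-only exceeded conservative-only peaks by 1.73 ± 2.58 points, on 15 of 19 chromosomes (adjusted p = 0.00812, exact sign-flip test), but by 0.30 points without replicate 2, which ended the call. Weighted to the members' signal, the difference from shared peaks was 2.41 ± 2.85 points for optimal-only (exact sign-flip test, adjusted p = 0.00984) and 0.36 ± 4.72 points for conservative-only peaks, the second no longer past the threshold (adjusted p = 0.763). Signal was not fully matched in the open highest bin of this weighting. Within the 20 to 40 band the difference from shared peaks was 0.060 and -1.67 points, neither past the threshold. From 40 to 60, repeats were at 24.8% of optimal-only and 22.8% of conservative-only peaks, against 29.5% of shared peaks, which was not tested. Signal was not matched within that bin either.

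Motif and repeat went together. Among peaks with a CTCF match, 53.6% of optimal-only and 53.5% of conservative-only peaks had a repeat at the summit, against 26.6% of shared peaks. Without a match the shares were 13.4%, 12.01% and 9.54%. These shares too moved with signal, since among matched peaks from 25 to 30 they were 52.5% for optimal-only, 55.1% for conservative-only and 54.1% for shared peaks.

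Members lay more often at promoters. A gene start was within 1 kb of 2225 optimal-only (25.4%) and 1558 conservative-only peaks (27.1%), against 11933 shared peaks (20.5%), with differences from shared peaks of 4.89 ± 1.75 and 6.42 ± 3.22 points, positive on 19 of 19 chromosomes each (exact sign-flip test, adjusted p = 6.54e-06). The -1.53 ± 4.06 points between optimal-only and conservative-only peaks did not pass (exact sign-flip test, adjusted p = 0.127). Without replicate 1 this difference was -2.79 points and passed (exact sign-flip test, adjusted p = 0.0164). Without replicate 2 it was -2.69 points and did not pass (exact sign-flip test, adjusted p = 0.0796). Weighted to the members' signal, the differences from shared peaks were 0.26 ± 3.74 and 1.83 ± 5.64 points and neither passed (exact sign-flip test, adjusted p = 0.763 and 0.293). From 40 to 60, however, a gene start was within 1 kb of 29.9% of optimal-only and 35.4% of conservative-only peaks, against 22.0% of shared peaks. That contrast was not tested. Within this bin the median signal was 43.8 in both groups of members and 48.8 in shared peaks, so signal was not matched. Introns held 40.01% of optimal-only, 39.4% of conservative-only and 40.4% of shared peaks, exons 4.68%, 4.07% and 5.06%, and intergenic sequence 29.95%, 29.4% and 34.0%.

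Promoter members carried few CTCF motifs. A match was found at 308 of 2225 optimal-only (13.8%) and 207 of 1558 conservative-only promoter peaks (13.3%), against 41.5% of shared promoter peaks. Away from promoters it was found at 42.7% of optimal-only, 41.2% of conservative-only and 67.7% of shared peaks. The part of signal in these contrasts was not tested. The GC box letters GGGCGG, on either strand within 50 bp of the summit, occurred at 6.79% of optimal-only and 7.27% of conservative-only peaks, against 5.50% of shared peaks, and the ETS letters CCGGAAG at 1.39%, 1.37% and 1.01%. These letters describe the windows and are no evidence that a factor was bound.

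Mean GC content around the summit was 50.5 ± 9.02% for optimal-only and 50.7 ± 9.04% for conservative-only peaks, against 49.6 ± 8.53% for shared peaks (SD over peaks). The differences from shared peaks over chromosomes were small, 0.85 ± 0.41 and 1.06 ± 0.58 points, and passed (exact sign-flip test, adjusted p = 1.14e-05 and 6.54e-06). They were higher on 18 and on 19 of 19 chromosomes. The -0.21 ± 0.73 points between optimal-only and conservative-only peaks did not pass (exact sign-flip test, adjusted p = 0.224). The value without replicate 1 was -0.64 points and passed (exact sign-flip test, adjusted p = 0.0101). Without replicate 2 it was -0.21 points and did not pass (exact sign-flip test, adjusted p = 0.601). Weighted to the members' signal, the differences from shared peaks were 0.10 and 0.32 points and neither passed (exact sign-flip test, adjusted p = 0.763 and 0.313).

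**Figure D5:**
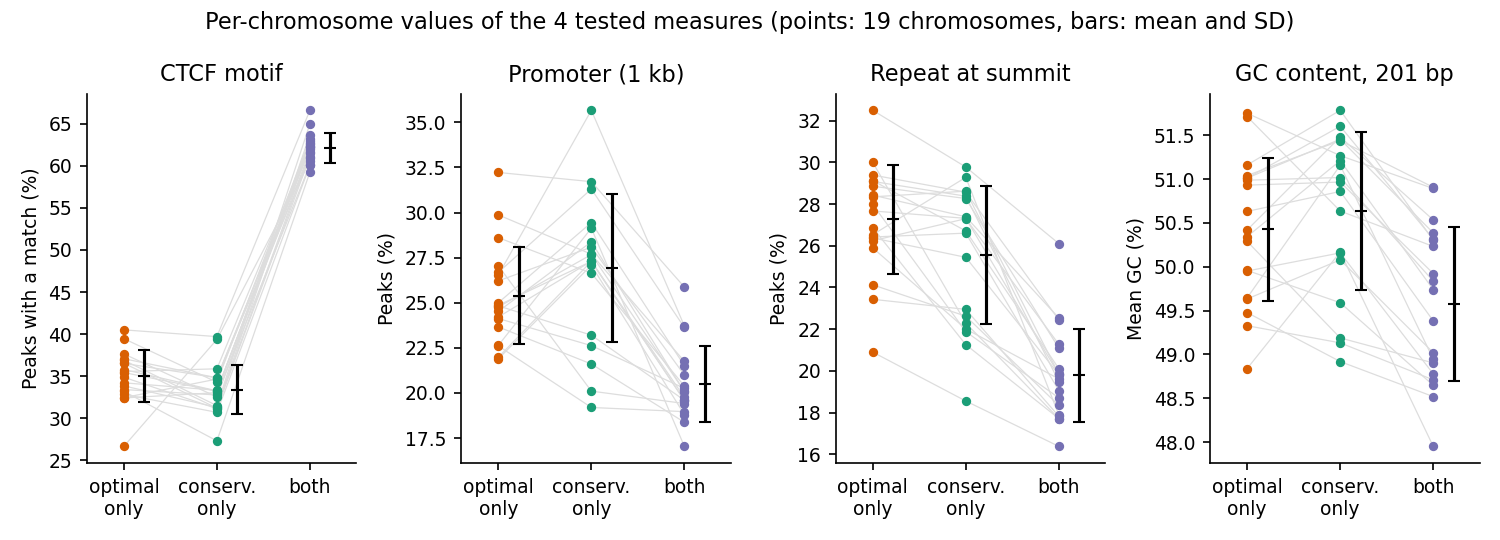
Points give, for each of 19 autosomes, the share of peaks with a CTCF match, within 1 kb of a gene start and with a repeat at the summit, and the mean GC content, joined by chromosome, with mean and SD as bars. On every chromosome fewer members than shared peaks had a match, with shared peaks at 59.2 to 66.6% and optimal-only peaks at 26.7 to 40.5%.

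A weak tail with a signal under 15 held 394 optimal-only, 320 conservative-only and 83 shared peaks. In all 3 groups few of these peaks had a CTCF match, 5.33% of optimal-only, 4.06% of conservative-only and 1.20% of shared ones. A promoter was within 1 kb of 197 optimal-only, 163 conservative-only and 41 shared tail peaks, and mean GC content was 54.4%, 54.1% and 54.02%. A shared summit lay within 310 bp, the usual peak width, of 29.2% of the optimal-only and 35.3% of the conservative-only tail, against 1.51% and 1.68% of the stronger members, and of 90.4% of the shared tail. Of this tail, 75 optimal-only and 6 conservative-only peaks were listed in both replicates. Without the tail, an alternative added after the data had been seen, the motif differences from shared peaks were -25.8 and -27.1 points.

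The strongest members were a mixed set. The strongest optimal-only peak, in an intron of Cenpf, a kinetochore protein of dividing cells, had 48.1 in replicate 1 and 8.78 in replicate 2, and its summit lay 199 bp from a shared one. Next was the peak in an intron of Cntn2, an axonal adhesion protein, shown above, with 57.5 and 8.57. At coding promoters the strongest optimal-only peaks were at Stx16, a syntaxin of the Golgi, with 22.7 and 56.9, at Papss1, and at Arv1, a lipid-transport protein, with 59.5 and 15.6. Kif13a, a kinesin, had 13.6 and 39.7, and Dna2, a nuclease and helicase of DNA repair, 54.1 and 15.1. None of these 5 promoter peaks had a match at 1e-05, and of all optimal-only promoter peaks 13.8% had one.

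The strongest conservative-only peaks were more even between replicates. The first, 70947 bp from the start of Bcat1, a branched-chain aminotransferase, had 82.1 in replicate 1 and 70.4 in replicate 2, with a shared summit 237 bp away. The second, in an intron of Trpv3, a heat-sensitive cation channel of skin, had 58.6 and 41.1, with a shared summit 204 bp away. At coding promoters they were Slc27a3, of the fatty acid transport family, with 46.2 and 42.9, and Cbx7, a Polycomb chromobox protein, with 45.8 and 38.3. Shisal2a followed with 46.7 and 34.8, Mdga1, a cell-surface glycoprotein of neurons, with 39.5 and 30.6, and Btf3, a nascent-chain factor, with 32.8 and 27.8. None of these 5 had a match at 1e-05 either, and of all conservative-only promoter peaks 13.3% had one.

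Single-list peaks occurred at promoters with and without a shared peak. Of 20780 protein-coding genes, 9.45% had an optimal-only and 6.62% a conservative-only peak within 1 kb of a start, against 39.3% with a shared peak. Without any shared peak there, 4.91% had an optimal-only and 3.34% a conservative-only peak. Taking both kinds together, 15.3% had a single-list peak and 7.88% had one and no shared peak. The latter were 1638 of 3175 genes (51.6%), where most coding genes as a whole lacked a shared peak too. Both kinds occurred at 165 genes, 76 of them without a shared peak. The other 1562 of these 1638 genes had a promoter peak in a single list.

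In 19 lists of midbrain, synaptic, imprinted, clock and cell type genes, 58 of 290 genes found on autosomes had a single-list peak, and 31 had one without a shared peak, beside 15.3% and 7.88% of all coding genes. The dopaminergic list had 0 of 20 genes with a single-list peak, as had the oligodendrocyte list (0 of 12), the microglial list (0 of 12) and the endothelial and pericyte list (0 of 12). Lists of this size are too small for a share to be read against the background.

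Midbrain patterning and neurotransmitter genes included Pax5 and Pax7, transcription factors of the midbrain-hindbrain boundary and the dorsal midbrain. Their optimal-only peaks had 26.9 in replicate 1 and 10.9 in replicate 2 at Pax5, and 12.4 and 14.7 at Pax7. Gad2, which makes GABA, had an optimal-only peak with 15.5 and 8.33, and Gata2, a selector of midbrain GABAergic neurons, a conservative-only peak with 13.2 and 9.58. Lhx1, a LIM homeodomain factor, had both kinds, an optimal-only peak with 13.8 and 18.3 and a conservative-only peak with 20.4 in replicate 1 that was not listed in replicate 2. Slc17a6, the vesicular glutamate transporter of midbrain, had an optimal-only peak with 12.8 and 18.98, and Barhl1, a homeodomain factor, a conservative-only peak with 11.1 and 9.42. These genes are the ones of their lists with a single-list promoter peak and no shared one. Gad1, the other GABA-making enzyme, had a conservative-only peak with 13.0 and 8.35 beside a shared peak of signal 252. A motif match was found at none of these single-list peaks. Over all promoter peaks a match was found at 13.8% of optimal-only and 13.3% of conservative-only ones.

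In axon guidance, 15 of 20 genes had a shared peak. The other 5 had single-list peaks and no shared one, beside 7.88% of all coding genes. Among these 5 were all 3 Slit genes, which encode repellents for commissural axons. Slit1 and Slit3 had conservative-only peaks, with 14.6 in replicate 1 and 9.68 in replicate 2 at Slit1 and with 20.8 and 13.4 at Slit3. Slit2 had an optimal-only peak with 18.2 in replicate 1 and none listed in replicate 2. The others were Sema3a, a repulsive semaphorin, with an optimal-only peak of 14.0 and 16.2, and Nrp2, a semaphorin co-receptor, with a conservative-only peak of 13.7 and 14.0.

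Of 18 synaptic vesicle genes, 7 had a shared peak. A single-list peak was at 8, beside 15.3% of all coding genes, and 4 of these had no shared one, beside 7.88%. The peaks of these 4 with a CTCF match were both optimal-only, at Bsn, the active zone scaffold bassoon, with 15.3 and 6.59, and at Stx1a, the plasma membrane syntaxin of release, with 11.6 and 11.0. Conservative-only peaks at Cplx1, a complexin, and Unc13a, a vesicle-priming factor, had 22.5 and 11.3, and 11.6 and 9.42. All 4 astrocyte genes with a single-list peak lacked a shared one: Aqp4, the water channel, with 25.1 and 8.86, Gja1, connexin 43, with 21.6 and 8.63, Aldoc, an aldolase, with 19.7 and 7.69, and Ndrg2, the conservative-only one, with 19.7 and 16.1. In that list, 3 of 12 genes had a shared promoter peak.

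Imprinted genes with a single-list peak numbered 8 of 25, beside 15.3% of all coding genes, and 12 of 25 had a shared peak. Igf2, the fetal growth factor, had a conservative-only peak with 12.9 and 9.39, and Dlk1, a Notch-family ligand, an optimal-only peak with 20.3 and 8.05, both without a shared promoter peak. Mest had the strongest optimal-only peak of the list, with 19.9 in replicate 1 and 35.9 in replicate 2, and Gnas, the stimulatory G protein locus, had one with a CTCF match, with 21.5 and 8.41, each beside a shared peak. Among immediate early genes, Arc, a synaptic plasticity protein, had an optimal-only peak with a match, with 26.6 and 10.1, and no shared peak. Homer1 and Nr4a1 had optimal-only peaks with 40.1 and 11.5, and with 33.6 and 10.4, each beside a shared peak.

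Genes of CTCF and cohesin themselves were among those with a single-list promoter peak beside a shared one, 4 of 15. Of all coding genes, 15.3% had a single-list peak. A shared peak was at 11 of these 15 genes. The optimal-only peak at Ctcf had 28.9 in replicate 1 and 10.8 in replicate 2, and that at Zfp143, a factor found at many promoter loop anchors, had 11.7 and 12.1. Conservative-only peaks at Pds5a and Stag1, both cohesin-associated, had 26.9 and 20.2, and 17.2 and 9.71. Clock genes showed Per3 with an optimal-only peak of 11.8 and 8.08 and Nr1d1, the repressor REV-ERB alpha, with a conservative-only peak of 13.6 in each replicate, neither with a shared peak. Genes of tissues outside brain appeared too, with Ptprc (CD45, of blood), Myh8 (perinatal muscle myosin) and Hnf4a (a liver factor) at 1 gene per list.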

How the data were processed

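CTCF ChIP-seq peak lists of 2 replicates of newborn mouse midbrain (mm10) were used as deposited. Per the text notes deposited with the samples, the authors called peaks on each replicate and on both pooled with a control alignment, and derived the optimal and conservative lists by IDR thresholding. The peak caller, the IDR threshold and which sets each list compared are not stated in these sources. The authors' signal value, score and −log10 q-value were taken unchanged. Signal has no stated scale, and score and q-value are capped.

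Summits were matched exactly between lists, and within 100 bp to the replicate lists. The CTCF matrix (20 columns) was learned by expectation maximisation from the 2000 strongest shared peaks on chromosomes of the other parity, and matches had an exact p of 1e-05 or less. Promoters were 1 kb around GENCODE starts. Repeats were lower-case reference bases. Shares in each chromosome were compared by an exact two-sided sign-flip test over 19 autosomes, with Benjamini-Hochberg adjustment over 12 differences and a threshold of 0.05. Chromosomes of one set of libraries are not independent biological replicates. The p-values test the mean difference over the chromosomes of this genome and do not cover variation between animals. Intervals are 95% Wilson intervals and cover counting error only. Python 3.11.15, numpy 2.4.6, scipy 1.17.1, pandas 2.3.3 and pysam 0.24.0 were used, and the test was tested on simulated data.

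Named peaks were the 5 of highest signal, the 5 of highest signal at coding starts and the 3 with the largest replicate ratio each way in each group, plus up to 4 genes of each gene list with the strongest single-list peaks. The members and the gene lists were chosen with earlier results of these data known. Alternatives were another overlap rule, signal limits, weighting to the members' signal, single replicates and other motif, promoter and GC settings.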

Additional observations from a re-analysis of the deposited data

How the results depend on the processing

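Of 123 alternative values of the 12 differences over 17 settings, 103 kept their direction and their side of the threshold. Counting a summit within 100 bp as shared was among these settings and changed no member, so its values could only repeat the main ones. Weighted to the members' signal, promoter differences from shared peaks of 0.26 (optimal-only) and 1.83 points (conservative-only), GC differences of 0.10 and 0.32 points and the conservative-only repeat difference of 0.36 points no longer passed. In the band of signal 20 to 40, chosen after seeing the data, none passed: motif -0.47 and -1.96, promoter 0.45 and 2.43, repeat 0.060 and -1.67 (reversed), GC 0.054 and 0.37 points from shared peaks, and 1.76 points between the groups for repeats. The cause was not tested. Above the median signal of each group, the repeat difference between the groups was 1.04 points and did not pass. At a motif p of 1e-04, the motif difference between the groups was 2.43 points and passed.

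Using the strongest peaks of a single replicate, the ranges were 3265 to 4312 for optimal-only and 2697 to 2802 for conservative-only peaks. Promoter, repeat and GC differences between the groups passed without replicate 1 but not without replicate 2, and the motif difference passed in neither setting. Between the groups, the difference ranged from -0.64 to 1.62 points for motifs, from -2.79 to -2.69 for promoters, from 0.30 to 2.13 for repeats and from -0.64 to -0.21 for GC. From shared peaks, it ranged from -26.1 to -23.7 (motif), 3.83 to 4.24 (promoter), 7.39 to 9.74 (repeat) and 0.47 to 1.10 (GC) for optimal-only peaks, and from -25.5 to -25.3, 6.62 to 6.93, 7.09 to 7.61 and 1.11 to 1.30 for conservative-only peaks. Above the median signal of the other group, 4585 optimal-only and 2743 conservative-only peaks remained, fewer by construction. Signal without a scale and unknown read depth limit what a small difference in rank shows.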
